A study of Mus musculus with 3 samples.

Results

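A set of 10 genes of the NRF2 pathway and of antioxidant defense were followed through the cells of injured mice, and they were chosen by name, as the rows of the count tables that carry their symbols. The choice was made with earlier results of these data known, so their counts beside the share of all genes are a description only. All 10 were found among the 27998 genes of the tables. They are *Nfe2l2*, which encodes the transcription factor NRF2, *Keap1*, *Hmox1*, *Nqo1*, *Gclm*, *Gclc*, *Txnrd1*, *Srxn1*, *Slc7a11*, and *Sod2*. Unsorted cells were taken from the bone marrow, the blood, and the site of the tendon injury, with 1 single-cell library for each, on day 3 from mice 10 weeks old at injury. The mice were male C57BL/6J animals. Under isoflurane, and after a dose of the opioid buprenorphine, all had received a burn on the back and a full cut through the Achilles tendon, an injury that leads to heterotopic ossification (HO), which is bone formed in soft tissue. No uninjured library was analysed here, and how many mice each library pools is not stated. Marrow was flushed, blood cells were the mononucleated fraction of a Ficoll gradient, both were freed of red cells by lysis, and the tendon site was digested with enzymes at body temperature, so tissue, preparation, and library cannot be told apart. Such a gradient removes most neutrophils, and the blood neutrophils described here are those left in the mononucleated fraction.

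NRF2 is held in the cytoplasm by KEAP1, which passes it to a ubiquitin ligase for destruction. Electrophiles and oxidants modify cysteines of KEAP1, and itaconate, the product of the enzyme encoded by *Acod1*, is one such electrophile. NRF2 then enters the nucleus, pairs with small MAF proteins, and binds antioxidant response elements near genes for glutathione synthesis, thioredoxin recycling, quinone reduction, and heme breakdown, while BACH1 competes for the same elements. Neutrophils produce large amounts of superoxide and take up cystine through the antiporter encoded by *Slc7a11*. In these files *Acod1* goes by its older symbol, *Irg1*.

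The promoters of 8 of the 10 genes were in the RefSeq table used (GRCm38.p6, from 250 bases before to 50 bases after each start), 10 promoters in all. *Hmox1* and *Gclc* had no entry. The core of the antioxidant response element, TGACNNNGC read on both strands, was found in 4 of these 10 promoters, those of *Srxn1*, *Gclm*, *Txnrd1*, and *Nfe2l2*, against 12.4% of all 32851 promoters of the same length. The AP-1 element TGANTCA was found in 1 of the 10 promoters, that of *Srxn1*, against 7.81% of all promoters. It stood there at 2 places that do not overlap the TGACNNNGC match. Forms of the antioxidant response element that depart from TGACNNNGC were not searched for, at these places or elsewhere. The 4 promoters with a match are shown so that the element can be read where it stands. The promoter of *Slc7a11*, whose level differed most between blood and tendon monocyte-like cells, is shown beside them as one in which these letters were not present. Each reads 5′ to 3′ on the strand of its gene, and capitals mark the antioxidant response element core.
*Srxn1*, chr2:152105274-152105573, plus strand: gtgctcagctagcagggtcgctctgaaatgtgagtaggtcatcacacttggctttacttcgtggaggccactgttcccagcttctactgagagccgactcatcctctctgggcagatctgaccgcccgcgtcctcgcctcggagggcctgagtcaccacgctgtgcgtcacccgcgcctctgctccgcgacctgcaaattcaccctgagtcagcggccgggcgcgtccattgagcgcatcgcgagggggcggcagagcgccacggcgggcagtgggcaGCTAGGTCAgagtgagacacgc
*Gclm*, chr3:122245307-122245606, plus strand: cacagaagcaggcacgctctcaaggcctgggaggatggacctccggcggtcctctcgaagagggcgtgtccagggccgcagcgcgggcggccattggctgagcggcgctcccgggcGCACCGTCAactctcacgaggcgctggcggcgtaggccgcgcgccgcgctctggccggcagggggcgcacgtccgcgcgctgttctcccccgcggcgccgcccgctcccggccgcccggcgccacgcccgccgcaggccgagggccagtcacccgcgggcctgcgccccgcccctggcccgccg
*Txnrd1*, chr10:82858956-82859255, plus strand: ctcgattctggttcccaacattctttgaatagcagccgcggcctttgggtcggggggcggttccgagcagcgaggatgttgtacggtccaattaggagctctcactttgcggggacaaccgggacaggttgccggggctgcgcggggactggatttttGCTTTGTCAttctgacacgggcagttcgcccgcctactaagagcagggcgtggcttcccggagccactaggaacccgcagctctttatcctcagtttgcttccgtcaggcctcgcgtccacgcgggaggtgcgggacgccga
*Nfe2l2*, chr2:75704614-75704913, minus strand: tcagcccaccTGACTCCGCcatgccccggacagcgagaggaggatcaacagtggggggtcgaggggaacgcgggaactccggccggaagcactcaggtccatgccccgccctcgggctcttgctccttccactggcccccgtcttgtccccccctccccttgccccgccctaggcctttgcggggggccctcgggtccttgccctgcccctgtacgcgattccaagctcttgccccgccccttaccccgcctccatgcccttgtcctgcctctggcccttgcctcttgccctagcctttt
*Slc7a11*, chr3:50443564-50443863, minus strand: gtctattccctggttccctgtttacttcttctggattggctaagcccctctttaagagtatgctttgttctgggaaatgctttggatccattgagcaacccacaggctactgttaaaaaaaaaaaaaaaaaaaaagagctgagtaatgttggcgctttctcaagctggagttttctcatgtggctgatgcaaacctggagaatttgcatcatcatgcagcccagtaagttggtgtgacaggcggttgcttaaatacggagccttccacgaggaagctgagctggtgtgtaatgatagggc
The match lay 29 bases after the start of *Srxn1*, on the opposite strand. In *Gclm* and *Txnrd1* it began 134 and 92 bases before the start, again on the opposite strand, and in *Nfe2l2* it began 240 bases before the start on the strand of the gene. *Txnrd1* had 2 other promoters in the table, both without the core. A match of letters is not evidence of binding, which was not measured.

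The libraries held 1855 marrow, 2241 blood, and 5629 tendon cells, of which 1813, 2146, and 4780 were kept. The median kept cell had 22893 unique molecular identifiers (UMIs, 1 per captured RNA molecule) in marrow, 8361 in blood, and 12178 in tendon. Between 1 and 6 cell barcodes were shared by any 2 libraries. Each library was clustered apart, without the 10 genes, *Irg1*, and the wider list of antioxidant genes described later. Clusters took a cell class from lists of known markers, and 374 marrow, 23 blood, and 640 tendon cells stayed without a name. This left 21 classes of at least 20 cells. Among the unnamed tendon clusters, 12 and 13 (252 and 119 cells) matched macrophage markers best, and 19 (114 cells) matched monocyte markers best. The tendon macrophage-like and monocyte-like classes leave these cells out. Levels are given as CPM, the UMIs of the gene as a share of all UMIs of the class, scaled to 1000000, followed by the exact Poisson 95% interval in brackets. Counts come from the 3' end of transcripts and are not scaled to length, so a level is compared only within a gene. With 1 library per tissue there are no replicates, no test was made, and every interval covers counting error only.

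**Figure D1:**
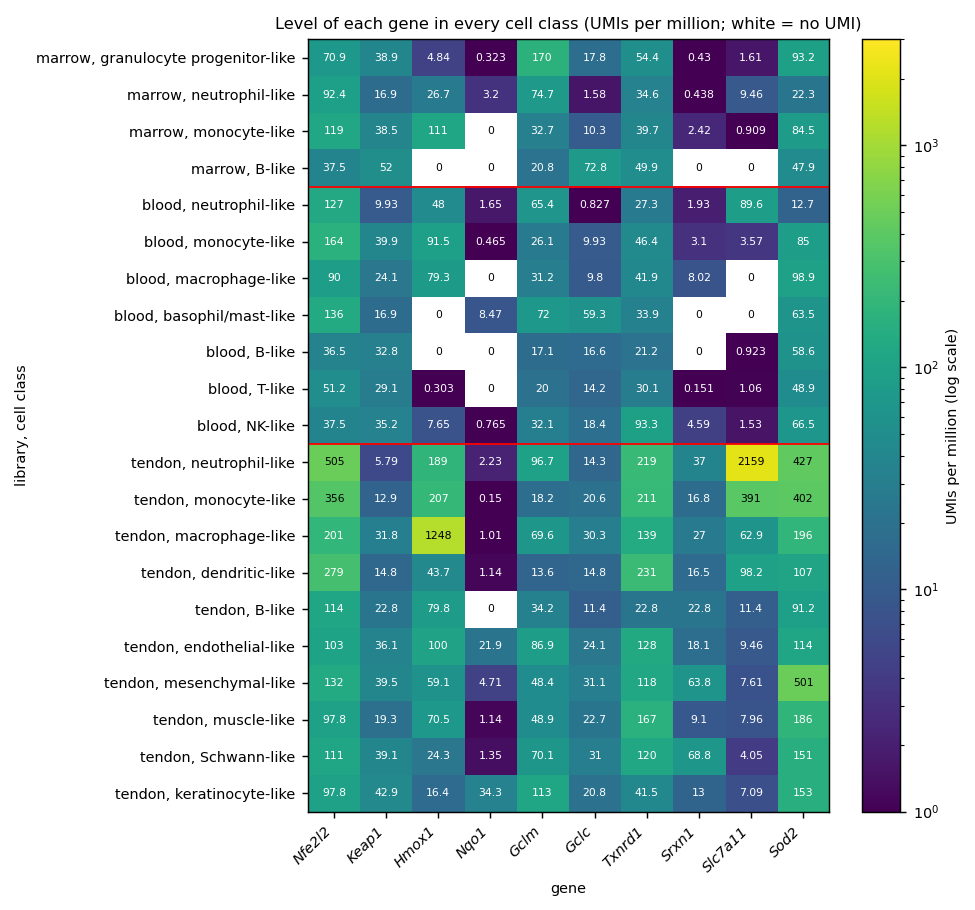
Level of the 10 genes (columns) in the 21 named cell classes (rows, by library, red lines between libraries), with the CPM printed in each cell and colored on a log scale; white marks 0 UMIs. *Slc7a11* peaks in tendon neutrophil-like cells (2159 CPM), *Hmox1* in tendon macrophage-like cells (1248 CPM), and *Sod2* in tendon mesenchymal-like cells (501 CPM).

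*Nfe2l2*, the gene of the factor itself, was highest in tendon neutrophil-like cells at 505 CPM [476 to 535], from 1132 UMIs in 560 cells. Tendon monocyte-like cells followed at 356 CPM [342 to 370], tendon dendritic-like cells at 279 CPM [255 to 305], and tendon macrophage-like cells at 201 CPM [194 to 207]. The intervals of these 4 neighbours in the order did not overlap. In blood, *Nfe2l2* ranged from 36.5 CPM in B-like cells to 164 CPM in monocyte-like cells, and in marrow from 37.5 CPM in B-like cells to 119 CPM in monocyte-like cells. The high end of the order was thus held by the myeloid classes of the injury site.

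*Keap1*, which encodes the cytoplasmic anchor of NRF2, ran the other way in neutrophil-like cells. These cells had its lowest level in each library, at 16.9 CPM [15.3 to 18.7] in marrow. The blood value was 9.93 CPM [6.95 to 13.7], and that of tendon 5.79 CPM [3.09 to 9.91]. The tendon value rests on 13 UMIs, and its interval overlapped that of blood. It also overlapped those of tendon dendritic-like cells (from 9.64 CPM) and tendon B-like cells (from 2.76 CPM, 2 UMIs). The blood interval overlapped that of blood basophil/mast-like cells (from 4.62 CPM, 4 UMIs), so the last place was not settled in these libraries. Of all measured genes, 56.1% were at least 2-fold higher in tendon macrophage-like than in tendon neutrophil-like cells, and 56.2% in tendon mesenchymal-like cells. How many genes have their lowest level in neutrophil-like cells was not counted, here or for *Gclc* and *Sod2* below. Other classes reached 52.0 CPM (marrow B-like cells, 25 UMIs) and 42.9 CPM (tendon keratinocyte-like cells, 333 UMIs), and the intervals of the 6 highest classes each overlapped that of the next. Over the 21 classes the Pearson correlation of *Nfe2l2* and *Keap1* on the log2(CPM + 1) scale was -0.64, given as a description of classes that share 3 libraries and their depths.

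*Slc7a11* encodes the light chain of the antiporter that brings cystine, the precursor of glutathione, into the cell. It was at 2159 CPM [2099 to 2221] in tendon neutrophil-like cells, 391 CPM [376 to 406] in tendon monocyte-like cells, and 98.2 CPM [84.1 to 114] in tendon dendritic-like cells. Blood neutrophil-like cells had 89.6 CPM [80.2 to 99.9], which overlapped the dendritic-like value, and marrow neutrophil-like cells had 9.46 CPM [8.24 to 10.8]. Neutrophil-like cells were its main holder in each library. They were 55.8% of the marrow cells with 87.4% of the *Slc7a11* UMIs of the library, 18.0% of the blood cells with 90.5%, and 11.7% of the tendon cells with 49.98%. In tendon, monocyte-like cells held a further 26.8% of the UMIs and macrophage-like cells 12.9%.

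The share of cells with at least 1 UMI depends on depth, so cells were thinned at random to 1000 UMIs each before shares were taken. After thinning, 80.3% (Clopper-Pearson 95% interval, 76.7 to 83.6) of 539 tendon neutrophil-like cells held a *Slc7a11* UMI, and 7.03% (4.68 to 10.1) of 384 blood neutrophil-like cells did. The unthinned shares were 95.4% at a median of 3492 UMIs per cell and 35.1% at a median of 8508 UMIs. Tendon mesenchymal-like cells, a class of the same library with little *Slc7a11*, had 0.724% after thinning and 12.7% before it, at a median of 34349 UMIs. Tendon neutrophil-like cells were thus the shallowest of the 3 and had the highest share by both measures. Thinning left out 21 tendon and 3 blood neutrophil-like cells.

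*Gclc* and *Gclm* encode the catalytic and the modifier subunit of glutamate-cysteine ligase, the first enzyme of glutathione synthesis. The subunits were distributed differently over the classes. *Gclm* was highest in marrow granulocyte progenitor-like cells at 170 CPM [162 to 179], ahead of tendon keratinocyte-like cells at 113 CPM [106 to 121], and it stayed between 65.4 and 96.7 CPM in the neutrophil-like cells of all 3 libraries. In marrow and in blood, *Gclc* was lowest in the neutrophil-like cells, with 1.58 CPM [1.10 to 2.18] in marrow and 0.827 CPM [0.171 to 2.42], from 3 UMIs, in blood. In tendon neutrophil-like cells it stood at 14.3 CPM [9.76 to 20.1]. Its top values, 72.8 CPM in marrow B-like cells and 59.3 CPM in blood basophil/mast-like cells, rest on 35 and 14 UMIs.

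*Txnrd1* encodes the cytosolic thioredoxin reductase. It was at 231 CPM [209 to 255] in tendon dendritic-like cells, 219 CPM [200 to 239] in tendon neutrophil-like cells, and 211 CPM [200 to 222] in tendon monocyte-like cells, with overlapping intervals between neighbours. No marrow class exceeded 54.4 CPM, and in blood the highest was 93.3 CPM in NK-like cells. The 167 CPM of tendon muscle-like cells came mostly from few cells, since 10 cells held 87.8% of the 147 UMIs. *Srxn1* encodes sulfiredoxin, which repairs overoxidized peroxiredoxins. It was at 68.8 CPM [51.2 to 90.4] in tendon Schwann-like cells, where 10 cells held all 51 UMIs, at 63.8 CPM [60.7 to 66.9] in tendon mesenchymal-like cells, and at 37.0 CPM [29.5 to 45.9] in tendon neutrophil-like cells. In marrow and blood no class passed 8.02 CPM. Of these 2 libraries, marrow B-like, blood B-like, and blood basophil/mast-like cells had 0 UMIs of *Srxn1*.

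*Nqo1*, which encodes a quinone reductase and is often used as a reporter of NRF2 activity, was low in the blood cell classes. It was at 34.3 CPM [30.3 to 38.7] in tendon keratinocyte-like cells and 21.9 CPM [18.8 to 25.3] in tendon endothelial-like cells. Tendon neutrophil-like cells had 2.23 CPM [0.724 to 5.20] from 5 UMIs, and tendon macrophage-like cells had 1.01 CPM from 20 UMIs. Among the tendon clusters, *Nqo1* was highest at 60.0 CPM [42.7 to 82.0] in the 32 endothelial-like cells of cluster 16, whose leading genes include *Ccl21a* and *Lyve1*.

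*Hmox1* encodes the inducible heme oxygenase, which splits heme into biliverdin, iron, and carbon monoxide. Tendon macrophage-like cells had 1248 CPM [1233 to 1264], and they were 30.04% of the tendon cells with 80.3% of the 30878 *Hmox1* UMIs. Tendon monocyte-like cells had 207 CPM [196 to 218] and tendon neutrophil-like cells 189 CPM [171 to 207], values whose intervals overlapped. Marrow and blood monocyte-like cells had 111 CPM [100 to 123] and 91.5 CPM [84.3 to 99.2]. Marrow B-like, blood B-like, and blood basophil/mast-like cells had 0 UMIs, and blood T-like cells had 0.303 CPM from 2 UMIs.

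*Sod2* encodes the manganese superoxide dismutase of mitochondria and is also a known NF-κB target. It was at 501 CPM [492 to 509] in tendon mesenchymal-like cells, 427 CPM [400 to 454] in tendon neutrophil-like cells, and 402 CPM [387 to 418] in tendon monocyte-like cells, and the last 2 overlapped. In blood and marrow, neutrophil-like cells had the lowest *Sod2* of all named classes of their library, at 12.7 CPM [9.29 to 16.9] and 22.3 CPM [20.4 to 24.4]. The order of this class was therefore last in blood and second in tendon.

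The step from marrow to blood in neutrophil-like cells (1011 and 387 cells) moved 1 of the 10 genes past 2-fold. Genes with at least 20 UMIs over both classes were counted as measured, which 9 of the 10 reached. Of all 9533 measured genes, 13.5% were at least 2-fold higher in blood and 31.3% at least 2-fold lower, and the median gene had a log2 ratio of -0.32. The gene that moved was *Slc7a11*, at a log2 ratio of 3.24 (95% interval, 2.99 to 3.50). *Hmox1* was at 0.85 (0.60 to 1.09) and *Nfe2l2* at 0.46 (0.31 to 0.61). *Sod2*, *Keap1*, and *Gclm* were at -0.82 (-1.28 to -0.38), -0.77 (-1.30 to -0.27), and -0.19 (-0.39 to 0.00). *Nqo1* and *Gclc* were at -0.95 and -0.93, just inside the 2-fold limit, and *Txnrd1* at -0.34. *Nqo1* had 73 marrow and 6 blood UMIs and *Gclc* 36 and 3, so both were measured through their marrow level alone. *Srxn1* had 10 and 7 UMIs and was not counted.

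*Slc7a11* already differed among the neutrophil-like clusters of marrow. It went from 1.79 CPM [0.895 to 3.21] in cluster 0, whose leading genes include those of granule proteins and histones, to 41.7 CPM [31.8 to 53.6] in cluster 9. Cluster 9 was also the marrow cluster with the most *Irg1* (47.2 CPM). Both blood clusters lay above it, at 71.8 CPM [54.8 to 92.4] and 94.97 CPM [83.9 to 107]. Against cluster 9 alone, a choice made after the values were seen, the blood to marrow log2 ratio of *Slc7a11* was 1.10 in place of 3.24, and that of *Hmox1* was -0.82 in place of 0.85.

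**Figure D2:**
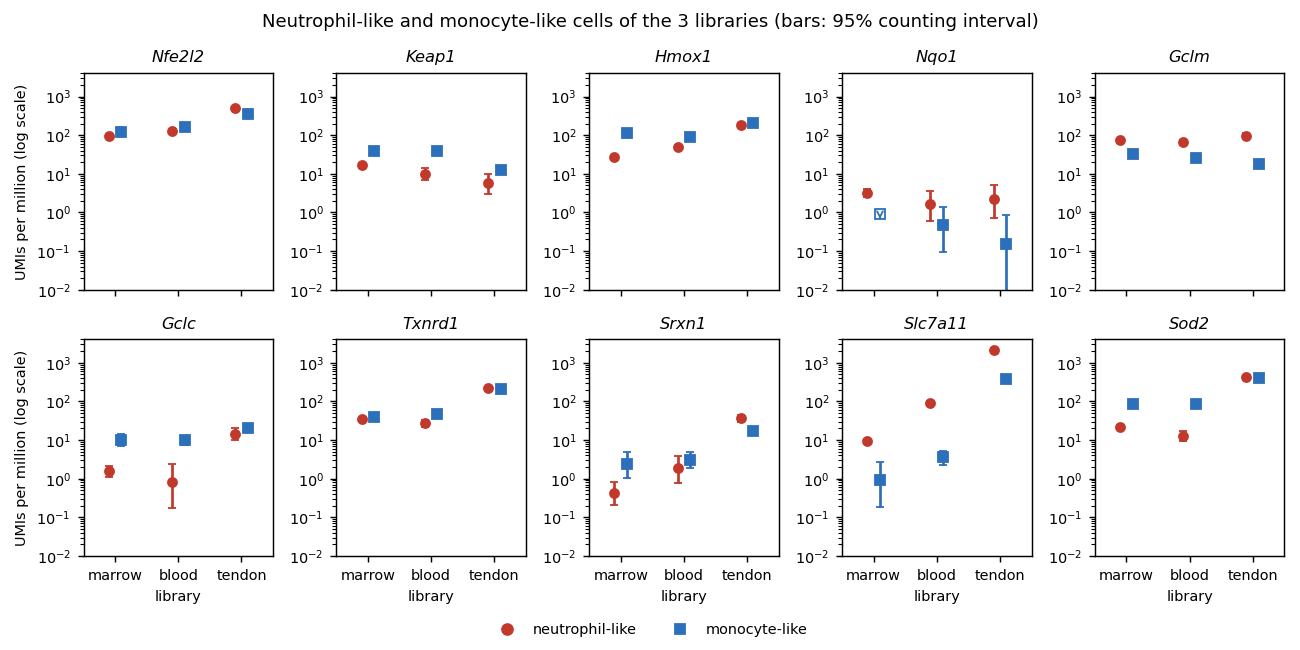
CPM (log axis) of each gene in neutrophil-like (red circles) and monocyte-like (blue squares) cells of marrow, blood, and tendon; bars are 95% counting intervals and an open symbol with an arrow is the upper limit at 0 UMIs. *Slc7a11* in neutrophil-like cells goes from 9.46 to 89.6 to 2159 CPM, while *Keap1* goes from 16.9 to 9.93 to 5.79 CPM. The tendon *Keap1* value rests on 13 UMIs, and its interval overlaps that of blood.

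The step from blood to the tendon site was larger. Of the 9 measured genes, 7 were at least 2-fold higher in tendon than in blood neutrophil-like cells (560 and 387 cells) and 0 were at least 2-fold lower. The background was 17.4% of 6714 measured genes higher and 14.9% lower, with a median log2 ratio of -0.02. *Sod2* had the largest log2 ratio at 5.07 (4.64 to 5.53), from 12.7 to 427 CPM, which is 33.6-fold. *Slc7a11* was at 4.59 (4.43 to 4.76), or 24.1-fold, and *Txnrd1* at 3.00 (2.69 to 3.33). *Srxn1* was at 4.26 (3.15 to 5.62) and *Gclc* at 4.11 (2.43 to 6.46), but their blood values rest on 7 and 3 UMIs, so these genes were measured through their tendon level alone. *Nfe2l2* was at 1.99 (1.83 to 2.14) and *Hmox1* at 1.97 (1.72 to 2.24). *Gclm* was at 0.57 (0.29 to 0.84) and *Keap1* at -0.78 (-1.82 to 0.17), both within 2-fold, and *Nqo1*, with 11 UMIs in all, was not counted.

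The 2 tendon neutrophil-like clusters were not alike in these genes. Cluster 2 (452 cells) had 3177 CPM of *Irg1* and cluster 15 (108 cells), whose leading genes include those for the granule proteins *Ngp* and *Camp*, had 1304 CPM. *Slc7a11* was at 2362 CPM in cluster 2 and 1622 CPM in cluster 15, *Sod2* at 553 and 89.7 CPM, and *Hmox1* at 226 and 89.7 CPM. *Srxn1* was close in both, at 35.6 and 40.8 CPM. With cluster 15 alone in place of both, a choice made after the values were seen, *Sod2* was at a log2 ratio of 2.82 over blood and *Hmox1* at 0.90, while *Slc7a11* stayed at 4.18.

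Several measures moved together with this step. The median tendon neutrophil-like cell had 3492 UMIs against 8508 in blood. The 12 macrophage markers summed to 289 CPM in tendon and 106 CPM in blood neutrophil-like cells, with 0 and 6 of them at 0, and the 9 mesenchymal markers to 122 CPM in tendon, where none was at 0, and to 0 CPM in blood, where all 9 were at 0. The immediate early genes *Egr1*, *Atf3*, and *Jun*, which also respond to enzymatic digestion, were at log2 ratios of 4.89, 4.58, and 2.22. *Dusp1* was at 0.43 (0.35 to 0.51) and *Fos* at -0.68. The stress genes *Hspa1a* and *Hspa1b* were at 2.28 and 2.11, on 5 and 3 blood UMIs. The part of depth and of handling in the step was not tested. Signal from other cells of the library was not measured. Markers of macrophage-like and mesenchymal-like cells were set beside the genes, and the part of such signal was not tested. In tendon neutrophil-like cells the macrophage markers stood at 1.003% of their level in macrophage-like cells, and *Hmox1* at 15.1% of its level there. The mesenchymal markers stood at 0.527% of their level in mesenchymal-like cells, *Sod2* at 85.2%, and *Srxn1* at 58.0%.

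Monocyte-like cells (605 in tendon, 408 in blood) were compared across the same step. Of 9 measured genes, 7 were at least 2-fold higher in tendon and 1 was at least 2-fold lower, where 9.05% of 9910 genes were higher and 20.4% lower and the median log2 ratio was -0.32. *Slc7a11* went from 3.57 to 391 CPM, a log2 ratio of 6.77 (6.19 to 7.44). *Srxn1* was at 2.44 (1.74 to 3.20), *Sod2* at 2.24 (2.11 to 2.38), and *Txnrd1* at 2.19 (2.01 to 2.37). *Hmox1*, *Nfe2l2*, and *Gclc* were at 1.18, 1.12, and 1.05, close to 2-fold. The gene that was lower was *Keap1*, from 39.9 CPM [35.1 to 45.1] in blood to 12.9 CPM [10.3 to 15.9] in tendon, a log2 ratio of -1.63 (-1.996 to -1.27). *Gclm* was at -0.52 (-0.87 to -0.17). The blood class pooled cluster 6 (293 cells), led by *F13a1*, *Vcan*, and *Ccr2*, and cluster 10 (115 cells), led by *Cd300e*, *Ace*, and *Treml4*, while the tendon class was a single cluster with *Ly6c2* among its leading genes. *Nfe2l2* was at 145 and 273 CPM in these blood clusters and *Hmox1* at 85.4 and 128 CPM, so the tendon levels were less than 2-fold above those of cluster 10. Against cluster 6 alone, a choice made after the values were seen, 7 genes were again higher and 1 lower, where 9.84% and 18.6% of all genes were so, with *Nfe2l2* at 1.29 (1.18 to 1.41) and *Hmox1* at 1.28 (1.13 to 1.43).

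The *Slc7a11* of tendon monocyte-like cells was also set against the neutrophil markers in them. These markers stood at 0.906% of their level in tendon neutrophil-like cells, *Irg1* at 0.597%, and *Slc7a11* at 18.1%. The part of signal from other cells in these values was not tested. After thinning, 28.1% (24.5 to 31.9) of 605 tendon monocyte-like cells held a *Slc7a11* UMI and 0 of 406 blood monocyte-like cells did, which at this depth allows a share of cells with a UMI of up to 0.904% and sets no limit on cells that express the gene. The unthinned shares were 74.4% at a median of 10978 UMIs per cell and 4.41% at a median of 17121 UMIs. The immediate early genes *Egr1*, *Jun*, *Dusp1*, *Atf3*, and *Fos* were at log2 ratios of 3.50, 2.27, 2.01, 1.79, and 1.32 in the same comparison, and their part in it was not tested. The stress genes *Hspa1a* and *Hspa1b* were at 2.51 and 0.83, and their part was not tested either. B-like cells were also found in both libraries, but the 22 of tendon held 36 UMIs of the 10 genes in all. Among these, *Nfe2l2* had 10 UMIs and a log2 ratio of 1.64 (0.53 to 2.60) over blood. *Hmox1* had 7 UMIs, at 79.8 CPM [32.1 to 164], where the 370 blood B-like cells held 0. *Keap1* and *Gclc*, on 2 UMIs and 1 UMI, were at -0.52 and -0.54, with intervals that held 0. *Egr1* was at 9.09 (6.46 to 14.5), from 22 tendon UMIs and 1 blood UMI. *Fos* was at 5.60 (4.93 to 6.30) and *Atf3* at 5.005 (3.70 to 6.35). The part of handling and of signal from other cells in these B-like values was not tested.

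**Figure D3:**
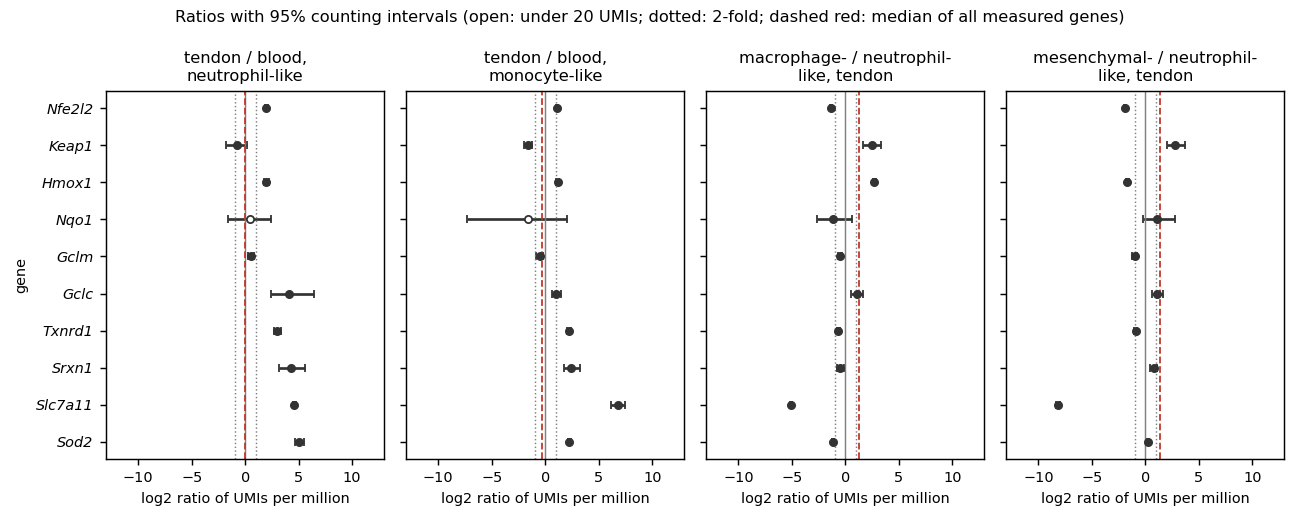
log2 ratio of CPM for each gene (rows) in 4 comparisons (panels), with 95% counting intervals; dotted lines mark 2-fold, open points have under 20 UMIs, and the dashed red line is the median of all measured genes. In tendon over blood, 7 genes are at least 2-fold higher in both lineages, where 17.4% of all measured genes in neutrophil-like and 9.05% in monocyte-like cells were so. Of the 7, *Srxn1* and *Gclc* rest on 7 and 3 blood neutrophil-like UMIs. *Slc7a11* lies at -5.10 and -8.15 in macrophage-like and mesenchymal-like over neutrophil-like cells.

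Tendon neutrophil-like cells were then split by *Irg1*. A UMI of *Irg1* was found in 515 of the 560 cells and not in 45. None of the 8 measured genes was past 2-fold between them, where 7.15% of 4882 genes were at least 2-fold higher in cells with *Irg1* and 12.1% at least 2-fold lower. *Nfe2l2* was at 519 CPM [489 to 551] with and 288 CPM [207 to 391] without *Irg1*, a log2 ratio of 0.85 (0.40 to 1.34). *Slc7a11* was at 2203 CPM [2140 to 2267] with and 1518 CPM [1323 to 1735] without it, a log2 ratio of 0.54 (0.34 to 0.74). *Sod2* was at 0.46 (0.02 to 0.92) and *Gclm* at 0.82 (-0.18 to 2.05). *Hmox1*, *Txnrd1*, *Gclc*, and *Srxn1* were at -0.46, -0.35, -0.61, and -0.85, with intervals that held 0. In the cells without *Irg1*, *Gclm* held 3 UMIs in cluster 2 and 5 in cluster 15. *Gclc* held 3 and 0 there, and *Srxn1* 7 and 2. *Gclm*, *Gclc*, and *Srxn1* were thus measured through the cells with *Irg1* alone. *Keap1* and *Nqo1* had 13 and 5 UMIs and were not counted.

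Other measures moved with the split. The median cell without *Irg1* had 2460 UMIs against 3529 with it, the macrophage markers summed to 485 against 276 CPM, with 3 and 0 of 12 at 0, and the log2 ratios of *Fos* and *Egr1* were -1.41 and -0.90. Their part in the values was not tested. Of the cells without *Irg1*, 10 held 94.4% of the *Hmox1* UMIs. When cells were named one by one in place of by cluster, the cells without *Irg1* became 54, with 260 CPM of macrophage markers against 280 CPM in cells with it. The neutrophil markers then summed to 315541 CPM without and 192726 CPM with *Irg1*, where the cluster names gave 210735 and 195999 CPM, and the part of this shift was not tested. In that setting *Hmox1* turned to a log2 ratio of 1.26, and 5 of the 8 genes were past 2-fold higher in cells with *Irg1*, namely *Slc7a11* (1.47), *Nfe2l2* (1.41), *Sod2* (1.34), *Hmox1*, and *Gclm* (1.01). Of all 5299 genes measured in it, 13.7% were at least 2-fold higher and 15.8% at least 2-fold lower. How many *Gclm* UMIs the 54 cells without *Irg1* held is not given. Within cluster 2 alone (421 and 31 cells) *Slc7a11* was at 0.19 (-0.04 to 0.43), *Nfe2l2* at 0.91 (0.30 to 1.59), and *Hmox1* at -0.89 (-1.43 to -0.30). Within cluster 15 alone (94 and 14 cells) they were at 0.93 (0.55 to 1.32), 0.58 (-0.10 to 1.34), and 0.02 (-1.21 to 1.53). *Sod2* was at -0.06 (-0.50 to 0.41) within cluster 2 and at 1.72 (-0.21 to 4.80) within cluster 15, where the cells without *Irg1* held 2 UMIs. Cluster 15 held 31.1% of the cells without *Irg1* and 18.3% of those with it, and the part of this mix was not tested.

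The cells were also grouped by the amount of *Irg1*. Among the tendon neutrophil-like cells thinned to 1000 UMIs, 116 had no *Irg1* UMI, 97 had 1, 144 had 2 or 3, and 182 had 4 or more. This grouping was added after the values were seen. *Slc7a11* was at 1828 CPM [1590 to 2091], 1649 CPM [1404 to 1926], 2132 CPM [1900 to 2384], and 3016 CPM [2769 to 3280] in the 4 groups in that order, and the interval of the last did not overlap the others. *Nfe2l2* was at 345 CPM [246 to 470] in the first group and 626 CPM [517 to 752] in the last, with overlapping intervals in the steps between. *Hmox1*, *Txnrd1*, and *Sod2* had overlapping intervals throughout, at 155, 181, and 414 CPM in the first group and 269, 264, and 560 CPM in the last. Before thinning, the median depth ran from 4090 UMIs in the first group to 3209 UMIs in the last. The groups pool clusters 2 and 15, which differed in *Irg1* and in *Slc7a11*, and the part of cluster in these values was not tested.

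**Figure D4:**
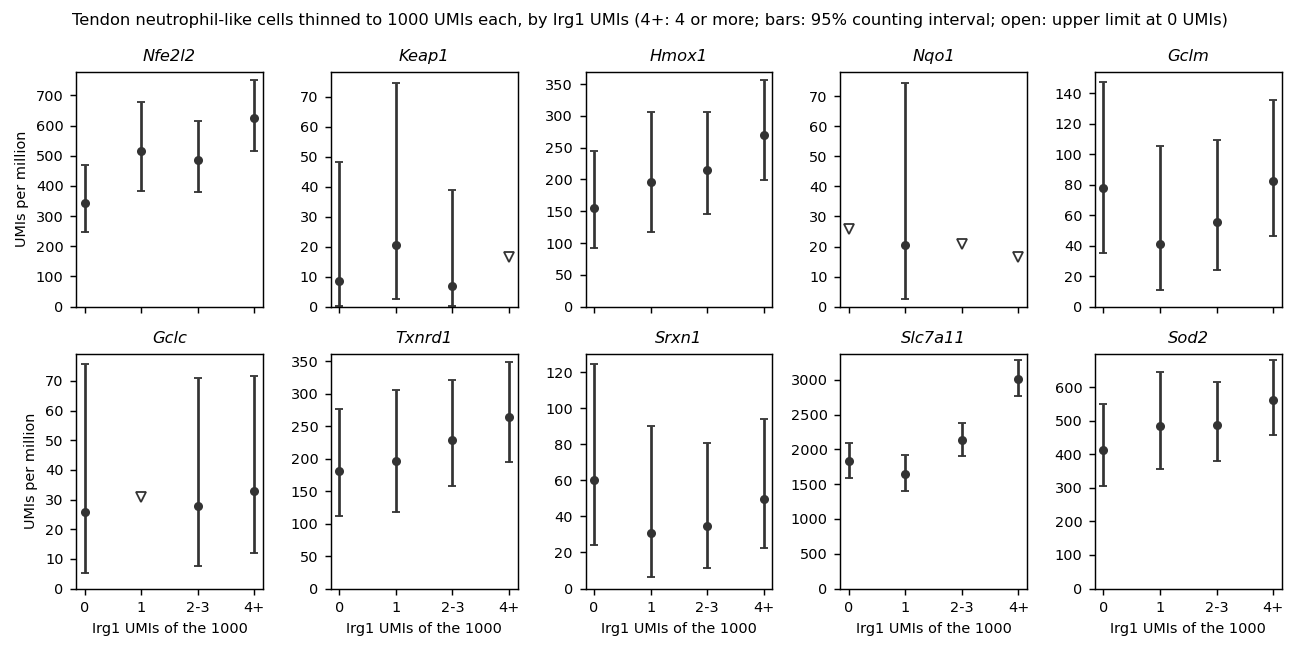
CPM of each gene in tendon neutrophil-like cells thinned to 1000 UMIs, in 4 groups by the number of *Irg1* UMIs (x axis; 116, 97, 144, and 182 cells); bars are 95% counting intervals and open triangles the upper limit at 0 UMIs. *Slc7a11* and *Nfe2l2* reach 3016 and 626 CPM in cells with 4 or more *Irg1* UMIs. The groups pool the neutrophil-like clusters.

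Tendon macrophage-like cells (1436 cells) were compared with the neutrophil-like cells of the same library. The median of 11196 measured genes lay at a log2 ratio of 1.25 in this comparison, so ratios are also given relative to that median. All 10 genes were measured, of which 3 were at least 2-fold higher in macrophage-like cells and 4 at least 2-fold lower, against a background of 56.1% and 10.8%. Relative to the median gene the split was 2 higher and 7 lower. The share of all genes on that scale is not given, so this count has no background. *Hmox1* was at 2.73 (2.59 to 2.87), 1.47 relative to the median, and *Keap1* at 2.46 (1.67 to 3.37), 1.20 relative to it. *Keap1* rests on 13 neutrophil-like UMIs and was measured through its macrophage-like level alone. *Gclc*, the remaining one of the 3, was at 1.09 and fell below the median gene, at -0.17 relative to it. *Slc7a11* was at -5.10 (-5.19 to -5.01), which is 34.3-fold lower in macrophage-like cells, and *Nfe2l2* at -1.33, *Nqo1* at -1.15 (-2.60 to 0.62, from 20 and 5 UMIs), and *Sod2* at -1.12. Relative to the median gene these were at -6.36, -2.59, -2.40, and -2.38, and *Txnrd1*, *Gclm*, and *Srxn1*, within 2-fold before, were at -1.91, -1.73, and -1.71.

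Against the tendon monocyte-like cells (605 cells), macrophage-like cells had 4 genes at least 2-fold higher and 2 at least 2-fold lower, where 25.4% and 5.35% of 11301 genes were so and the median log2 ratio was 0.41. Relative to that median the split was 3 higher and 4 lower, a count again without a background on that scale. *Hmox1* was at 2.59 (2.51 to 2.67), from 207 to 1248 CPM, *Gclm* at 1.94 (1.67 to 2.22), and *Keap1* at 1.30 (0.97 to 1.64). *Nqo1*, at 2.75 (0.10 to 8.12), rests on 20 UMIs and 1 UMI. *Slc7a11* was at -2.63 (-2.73 to -2.54) and *Sod2* at -1.04 (-1.11 to -0.97). *Nfe2l2* itself was at -0.83 (-0.90 to -0.75), so the gene of the factor and *Hmox1* were ordered in opposite ways in these classes.

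*Hmox1* was unevenly spread over the 5 macrophage-like clusters. It was at 2076 CPM [2037 to 2116] in cluster 6, led by *Ccl8*, *Cd163*, and *Folr2*, the last 2 known from resident macrophages, and at 1525 CPM [1489 to 1561] in cluster 17, led by *Arg1*, *Ppbp*, and *Spp1*. Cluster 3, in which hemoglobin transcripts stood first, had 932 CPM [904 to 960]. Cluster 14, with *Il10* and *Tnf*, had 591 CPM, and cluster 20, with the interferon-responsive genes *Rsad2* and *Ifit2*, had 505 CPM [480 to 530]. *Slc7a11* had another order in these clusters, at 152 CPM in cluster 17, 118 CPM in cluster 14, and 15.2 to 28.0 CPM in the other 3. *Gclm* and *Srxn1* were highest of the 5 in cluster 17 as well, at 99.6 and 44.0 CPM.

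Tendon mesenchymal-like cells (692 cells), the class that holds the fibroblast and tendon matrix genes, were set against the neutrophil-like cells last. With 3 genes at least 2-fold higher and 3 at least 2-fold lower, the 10 genes stood against a background of 56.2% and 14.6% of 12836 genes and a median log2 ratio of 1.38. Relative to that median the split was 1 higher and 6 lower, also without a background on that scale. *Slc7a11* was at -8.15 (-8.36 to -7.94), from 2159 to 7.61 CPM. *Nfe2l2* was at -1.93, *Hmox1* at -1.67, and *Gclm*, 48.4 against 96.7 CPM, just inside the 2-fold limit. *Keap1* was at 2.77 (1.99 to 3.68), 1.39 relative to the median gene, while *Gclc* (1.12) and *Nqo1* (1.08) came to -0.26 and -0.30 relative to it. *Keap1* and *Nqo1* rest on 13 and 5 neutrophil-like UMIs and were measured through their mesenchymal-like level alone. *Srxn1* and *Sod2* were at 0.79 and 0.23. Within the class, *Sod2* was at 638 CPM [627 to 650] in cluster 1, led by *Prg4* and *Timp1*, and at 126 CPM [118 to 135] in cluster 11, led by *Cilp*, *Aspn*, and *Clec3b*. Collagen genes were among the leading genes of both.

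**Figure D5:**
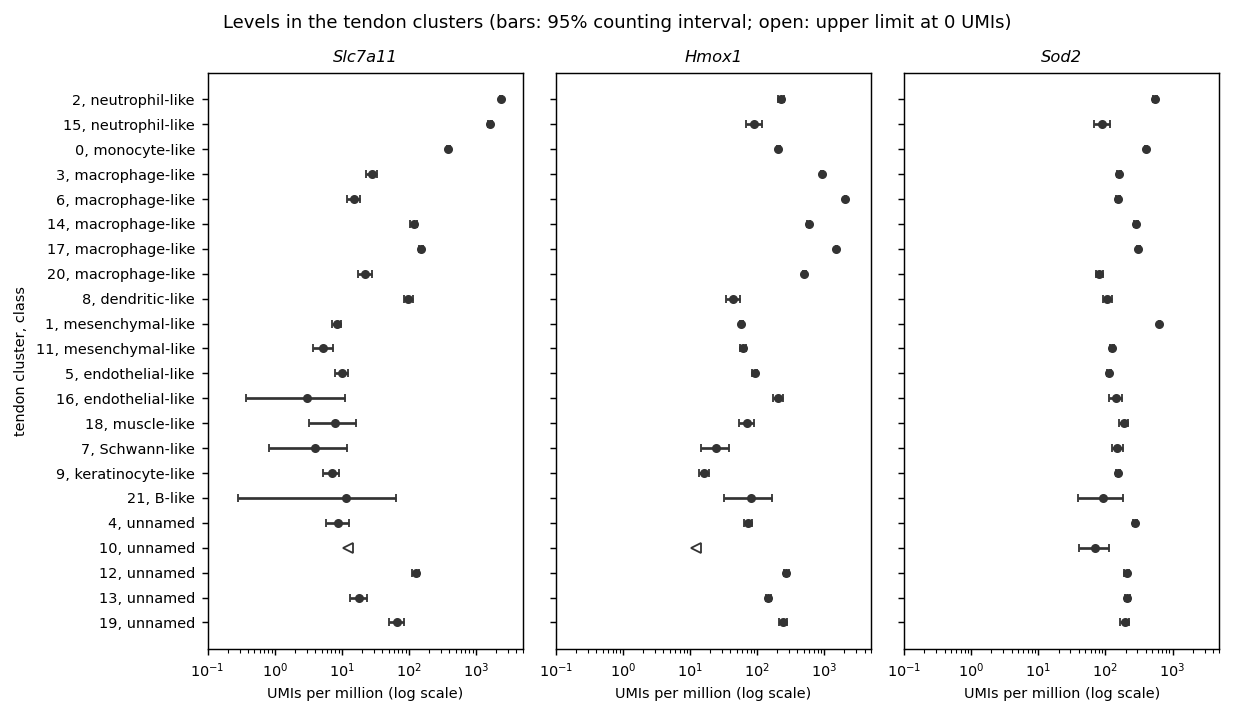
CPM (log axis) of *Slc7a11*, *Hmox1*, and *Sod2* in the 22 tendon clusters (rows, cluster number and class); bars are 95% counting intervals and open triangles the upper limit at 0 UMIs. *Slc7a11* peaks in neutrophil-like cluster 2 (2362 CPM), *Hmox1* in macrophage-like cluster 6 (2076 CPM), and *Sod2* in mesenchymal-like cluster 1 (638 CPM).

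A wider list of 51 antioxidant and NRF2-related genes put the 10 in context. From blood to tendon neutrophil-like cells, 12 of its 41 measured genes were at least 2-fold higher and 8 at least 2-fold lower, where 17.4% and 14.9% of all genes were so. The median log2 ratio was 0.13 where that of all genes was -0.02. By function, 3 of 8 regulators were higher, among them *Maff*, a small MAF partner of NRF2, from 2.76 to 103 CPM (5.23, 4.32 to 6.31, on 10 blood UMIs), and *Sqstm1*, whose protein binds KEAP1, at 2.56 (2.30 to 2.83). *Slc3a2*, which encodes the heavy chain that pairs with the product of *Slc7a11*, was the 1 glutathione gene of 6 that was higher, from 12.96 to 144 CPM (3.47, 3.02 to 3.94), and 2 of the 6 were lower. *Fth1*, the ferritin heavy chain, whose copies elsewhere in the genome can share reads with it, was at 3.10. Of the 5 measured NADPH-supplying enzymes, 0 were higher and 4 lower, where 14.9% of all genes were lower, namely *G6pdx* (-1.74), *Tkt* (-1.47), *Pgd* (-1.08), and *Idh1* (-1.06). *Slc40a1*, the iron exporter, was at -2.37.

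In monocyte-like cells the same step had 7 of 44 measured genes of the wider list at least 2-fold higher and 6 at least 2-fold lower, against 9.05% and 20.4% of all genes, with a median of -0.25 against -0.32 for all genes. *Maff* (6.60), *Slc3a2* (3.00), *Sqstm1* (2.44), and *Fth1* (1.92) were its 4 largest ratios among genes with at least 100 UMIs over both classes, and also the 4 largest of the neutrophil-like cells. *Maff* rests on 5 blood UMIs here (interval, 5.37 to 8.23) and passed this minimum through its tendon level alone. None of the 9 thioredoxin and peroxiredoxin genes was past 2-fold. Between cells with and without *Irg1*, 0 of 37 measured genes of the wider list were higher and 6 were lower, where 7.15% and 12.1% of all genes were so, and *Prdx1* was at -1.23 (-1.92 to -0.47). From marrow to blood neutrophil-like cells, 9 of 46 were higher and 8 lower, where 13.5% and 31.3% of all genes were so. *Gstm1* was at -4.49 (-6.77 to -2.93) on 3 blood UMIs, *Txnip*, which encodes an inhibitor of thioredoxin, at 2.49, *Slc40a1* at 2.11, and *Blvra* at -2.05.

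Between tendon classes, macrophage-like over neutrophil-like cells had 21 of 50 genes of the wider list higher and 13 lower, against 56.1% and 10.8% of all genes, and a median of 0.48 against 1.25 for all genes. *Cat*, the catalase gene, was at 4.82 (3.46 to 6.70) and *Blvra*, a biliverdin reductase gene, at 4.74 (3.86 to 5.80), but these rest on 4 and 10 neutrophil UMIs and were measured through the macrophage-like level alone. *Prdx2* was at 4.35 (3.87 to 4.87), while *Gsr*, which encodes glutathione reductase, was at -4.16, from 867 to 48.7 CPM. Over monocyte-like cells, 10 of 49 were higher and 5 lower, against 25.4% and 5.35% of all genes, and 4 of the 7 heme and iron genes were higher, among them *Slc40a1* (3.91, 2.76 to 5.36, on 6 monocyte UMIs), *Blvrb* (2.54), and the heme transporter gene *Slc48a1* (2.26), with *Gsr* at -2.94. Mesenchymal-like over neutrophil-like cells had 22 of 51 higher and 15 lower, against 56.2% and 14.6% of all genes. There *Sod3*, the extracellular superoxide dismutase, was at 6.78 (5.74 to 8.10), from 3.12 to 343 CPM, on 7 neutrophil UMIs, and *Osgin1*, *Slc40a1*, and *Txnip* were at -5.39, -5.39, and -4.99.

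The genes whose levels ran most like 4 of the 10 over the 21 classes were found by the Pearson correlation of log2(CPM + 1) among 12465 genes, as a description with no test, since the classes share libraries and depths. For *Slc7a11* these were *Il1b* (0.96), *Gm14286* (0.92), and *Il1rn* (0.92). For *Hmox1* they were *Fnip2* (0.96), *Bach1* (0.91), which encodes the repressor at the same elements, and *Ctsb* (0.89). For *Srxn1* they were *Nr4a2* (0.91), *Zfp651* (0.91), and *Atf3* (0.91), and for *Sod2* *Slc35b2* (0.88), *Etf1* (0.84), and *Pofut2* (0.83). Among the 10 genes themselves, the pair most alike was *Nfe2l2* and *Slc7a11* at 0.81.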

How the data were processed

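For each of the 3 tissues, unsorted cells went into 1 droplet library made with a 3' kit. Per the file headers, the authors made the deposited UMI counts with Cell Ranger 5.0.1; the submitters' processing notes name mm10. The counts are whole numbers per gene and cell and are not normalized.

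Cells with under 200 genes or over 20% mitochondrial UMIs were removed (15 of marrow, 57 of blood, and 651 of tendon), as were the cells with the highest doublet scores at a rate of 0.8% per 1000 cells (27, 38, and 198), since the automatic threshold of the caller marked 0 in tendon. Each library was clustered apart with scanpy 1.11.5 (2000 variable genes, 30 components, 15 neighbors, Leiden resolution 1), without the 10 genes. A marker was on in a cluster at 20% or more of its highest level over clusters. A class needed at least 3 markers on, and a share of its markers on at least 1.5 times that of the next class. Among the 10 genes leading the cluster over the median cluster, no other class could have more markers. Among the 10 genes leading it in its own library, no other class could be ahead by 3 or more. This rule was settled after the clusters were seen. A joint clustering of the libraries was not used, since it placed marrow cells with azurophil granule transcripts among mesenchymal cells.

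UMIs were summed per class. Intervals are exact, at 95%, and take in no error other than that of counting, and no test was made. A gene was measured at 20 or more UMIs over both classes and counted at 2-fold. Wider-list genes were named as the 4 largest absolute log2 ratios with at least 100 UMIs. The counting and ratio steps were also run on simulated counts drawn with counting error. This checks their arithmetic, not the clusters, their names, or differences between libraries. The 10 genes and the lists were chosen with earlier results of these data known, and the handling genes, the groups by *Irg1* amount, and the single-cluster values after the values were seen.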

Additional observations from a re-analysis of the deposited data

How the results depend on the processing

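Of 761 log2 ratios of the 10 genes recomputed under other settings, 618 stayed within their counting interval, 140 moved out of it, and 3 that were past 2-fold changed sign. Those 3 did so relative to the median gene, namely *Gclc* in macrophage-like over neutrophil-like cells (-0.17) and *Nqo1* (-0.30) and *Gclc* (-0.26) in mesenchymal-like over neutrophil-like cells, by the construction of that scale. The settings of at least 50 UMIs and of 1.5-fold change only which ratios are counted, so their ratios could not move. These ratios are included in the 761 and in the 618. Ratios within 2-fold could change sign too, as *Hmox1* did between cells with and without *Irg1*, from -0.46 to 1.26 with cells named one by one. For blood over marrow neutrophil-like cells, the count past 2-fold was 1. With every barcode kept or at clustering resolution 0.5 or 2 it became 1 higher and 1 lower. The same held with at least 500 genes and at most 10% mitochondrial UMIs, with cells named one by one, or with cells weighted alike. It became 2 higher relative to the median gene, 1 higher and 2 lower without the most abundant genes, and 2 higher and 4 lower at 1.5-fold. Over the settings of this comparison, *Nqo1* ran from -1.39 to -0.63, and *Gclc* from -1.36 to 0.73, the last with doublets kept. Between tendon neutrophil-like cells with and without *Irg1*, the count was 0. It became 1 lower with the stricter cell filter or with doublets kept, and 1 higher relative to the median gene or within cluster 15. Cells weighted alike gave 2 higher, cluster 2 alone 1 higher and 2 lower, and 1.5-fold 2 higher and 2 lower. In cluster 2 the higher gene was *Gclm* (1.34, -0.24 to 3.63). The lower genes were *Gclc* (-1.32, -3.04 to 1.05) and *Srxn1* (-1.52, -2.66 to -0.13). In the cells without *Irg1* of that cluster, these rest on 3, 3, and 7 UMIs. Cells named one by one gave 5 higher, where 13.7% of all genes were so. The shares of all genes in the other settings of this section are not given, so those counts of genes past the fold have no background. The highest class was the same for 6 of the 10 genes with cells weighted alike. The causes of these moves were not tested. In the other 5 comparisons the sum of higher and lower calls stayed within 1.5 times of its value in every setting run, but the split did not. Mesenchymal-like over neutrophil-like cells went from 3 higher and 3 lower to 1 and 5 without the most abundant genes and to 1 and 4 with cells weighted alike. Macrophage-like over neutrophil-like cells went from 3 and 4 to 2 and 5 without the most abundant genes, and over monocyte-like cells the lower calls ran from 1 to 4 around a value of 2. Tendon over blood neutrophil-like cells went from 7 and 0 to 7 and 1 with every barcode kept, the stricter cell filter, or doublets kept. The same held at clustering resolution 2, without the most abundant genes, or at 1.5-fold. With tendon cluster 15 alone the split was 5 and 1. No paired analysis was possible because there was 1 library per tissue, and for the same reason no library could be left out. Depth limits *Nqo1*, *Keap1*, *Gclc*, and *Srxn1* in neutrophil-like cells, where a class could hold as few as 3 UMIs. It also limits *Gclm* in the tendon neutrophil-like cells without *Irg1*.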
